A study of Drosophila melanogaster with 16 samples.

Results

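Muscle sarcomere genes were followed in heads of male Drosophila melanogaster that express a short repeat (5R) or a long repeat (160R). The members were 35 symbols of contractile, Z-disc, thin-filament, thick-filament and calcium-handling proteins, matched to the symbol column of the deposited count files. Of these, 34 were found among the 17558 genes counted, and all 34 were above the count filter and tested. Msp-300 had no match under that spelling. The rule used symbols only and no measured value, although the list was drawn up with results of these data in view.

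The series models frontotemporal dementia and amyotrophic lateral sclerosis linked to C9ORF72, and has 4 groups of 4 libraries. Chrom2-160R and Chrom2-5R flies express 160R or 5R from chromosome 2, and Chrom3-160R and Chrom3-5R flies express 160R or 5R from chromosome 3. All 16 libraries are from heads of males aged 5 to 8 days after eclosion, grown at 25 °C, and every fly carries a repeat transgene, so no group is free of one. The labels name neither the promoter or cell type that drives the transgene, nor the number of lines or of heads pooled, nor what a replicate number marks, so a p-value here weighs a difference against library-to-library spread alone, possibly of technical origin.

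The sarcomere is the contractile unit of striated muscle. Thick filaments of myosin slide along thin filaments of actin that are anchored in Z-discs, and troponin with tropomyosin opens the thin filament to myosin when calcium is released. Calcium is then pumped back into the sarcoplasmic reticulum. The muscles of a fly head, such as those that move the proboscis and pharynx, are tubular, whereas the fibrillar indirect flight muscle with its own protein forms lies in the thorax. Several members, among them Tm1, Actn, tmod, Argk and Ca-P60A, are also transcribed outside muscle. In libraries from whole heads, fewer muscle cells and less RNA per muscle cell cannot be told apart.

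Libraries of Chrom2-160R held 19047916 to 30496479 counts and those of Chrom2-5R 11452337 to 23498476; Chrom3-160R libraries held 48118158 to 49792428 and Chrom3-5R libraries 42854987 to 53615117, so that a level of 1 CPM (counts per 1000000, after scaling) stood for 10.6 to 55.5 reads. Head markers were present, with the pan-neuronal gene elav at 293 to 382 CPM in the 16 libraries, and the midgut proteases alphaTry, betaTry, Jon65Aiii and Jon99Ci were at no more than 0.343 CPM in any library, while the whole list of 21 midgut markers summed to 46.2 to 129 CPM. Counts covered whole gene spans: in all 916 pairs of a gene nested in another on the same strand, and in 1597 of 1612 pairs on opposite strands, the host had at least as many counts as the nested gene in every library. Reads of introns and of overlapping genes on either strand therefore enter the values. Of the members, 17 overlap another counted gene, and for 6 the partner had at least as many counts as the member itself: TpnC4 with CG30438 at 65.9 times, TpnC25D with tkv at 2.96 times, Mlp84B with Alh at 1.74 times, sals with CG17230 at 1.60 times, Actn with east at 1.22 times and Mf with Gyc88E at 1.14 times. These overlaps covered the whole span of TpnC4, Mlp84B and Mf and 14007 of 14245 bp of sals. Reads in an overlap enter the counts of both genes, so a partner's counts include reads of the member and do not give the partner's own level. For TpnC25D the overlap was 54 bp, and for Actn with east 826 bp. The muscle actin genes are near-identical in coding sequence, and so are some troponin C genes, so a split of reads among them is uncertain.

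Per kb of gene span, the muscle actin gene Act57B had the highest level of the members. Its mean was 206 CPM per kb over the 16 libraries, with a range of 117 to 524. The regulatory myosin light chain gene Mlc2 followed at 181 CPM per kb, with a range of 113 to 430 that overlapped that of Act57B. Next came Ca-P60A, the calcium pump of the sarcoplasmic reticulum, at 106, the myosin heavy chain gene Mhc at 91.9 and the arginine kinase gene Argk, which buffers ATP, at 82.4 CPM per kb. Spans include introns, and exons made up 71.5% of the span of Act57B but 20.3% of that of Argk. This order therefore holds per kb of span and does not rank transcripts. The flight-muscle forms stood far below these genes: the thick-filament gene fln had 7.69, the flight-muscle actin Act88F 2.06 and the flight-muscle troponin C gene TpnC4 0.118 CPM per kb. Low levels were not theirs alone. Below fln, at rank 24, lay tn (6.95 CPM per kb), tmod, TpnC41C, sals, Zasp52, TpnC73F, Zasp67 and TpnC47D, the last 2 also below Act88F. TpnC4 was the lowest of the 34 and held 304 reads over all 16 libraries, and its span overlaps CG30438.

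**Figure D1:**
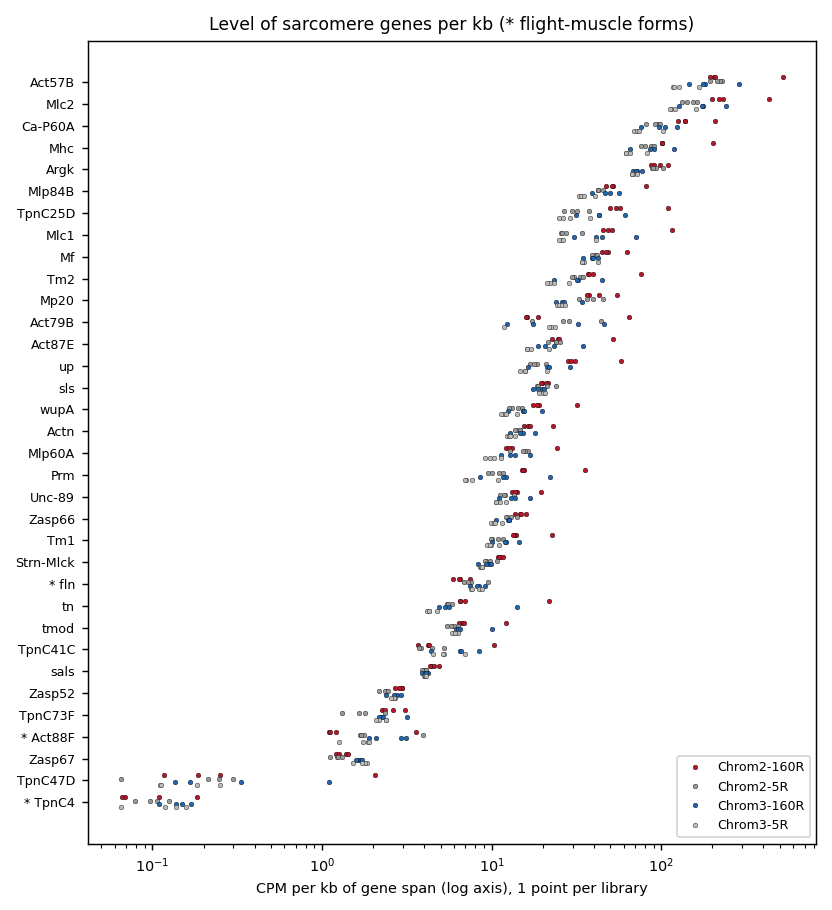
Level of the 34 sarcomere genes as CPM per kb of gene span on a log axis, with 1 point per library and colours for the 4 groups. Act57B and Mlc2 lie at the top near 200 CPM per kb, and the flight-muscle form TpnC4, marked with an asterisk, lies lowest at 0.118 CPM per kb on average.

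A pair of libraries stood apart from their own groups in these genes. Chrom2-160R replicate 1 was the highest of its group for 30 of the 34 members (88.2%), where it was the highest for 35.6% of all genes tested. Its CPM were 1.79 times the mean of the other 3 libraries at the median member, against 1.0 times at the median gene. The same library was not raised for the titin-like gene sls (1500 CPM, against 1486 to 1621 CPM in the other 3), nor for Zasp67, Strn-Mlck and Zasp52. Chrom3-160R replicate 4 was likewise the highest of its group for 30 members, against 28.8% of all genes, at 1.35 times the mean of the other 3 at the median member. On the 5R side, Chrom3-5R replicate 2 was the highest for 24 members, against 31.9% of all genes, at 1.17 times the mean of the other 3.

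The excess in Chrom2-160R replicate 1 was uneven among genes. The troponin C gene TpnC47D was at 11.1 times, the actin Act79B at 3.81 times, tn at 3.26 times and Act88F at 3.2 times the mean of the other 3 libraries, while Zasp66 was at 1.10 and sals at 1.09 times. In Chrom3-160R replicate 4 the largest ratios were again those of TpnC47D (5.23 times), tn (2.66 times) and Act79B (2.23 times). The median coefficient of variation of the members between libraries was 33.0% in Chrom2-160R, 7.98% in Chrom2-5R, 19.5% in Chrom3-160R and 9.69% in Chrom3-5R, against 8.91%, 8.77%, 6.27% and 5.98% for all genes tested in the same 4 groups.

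**Figure D2:**
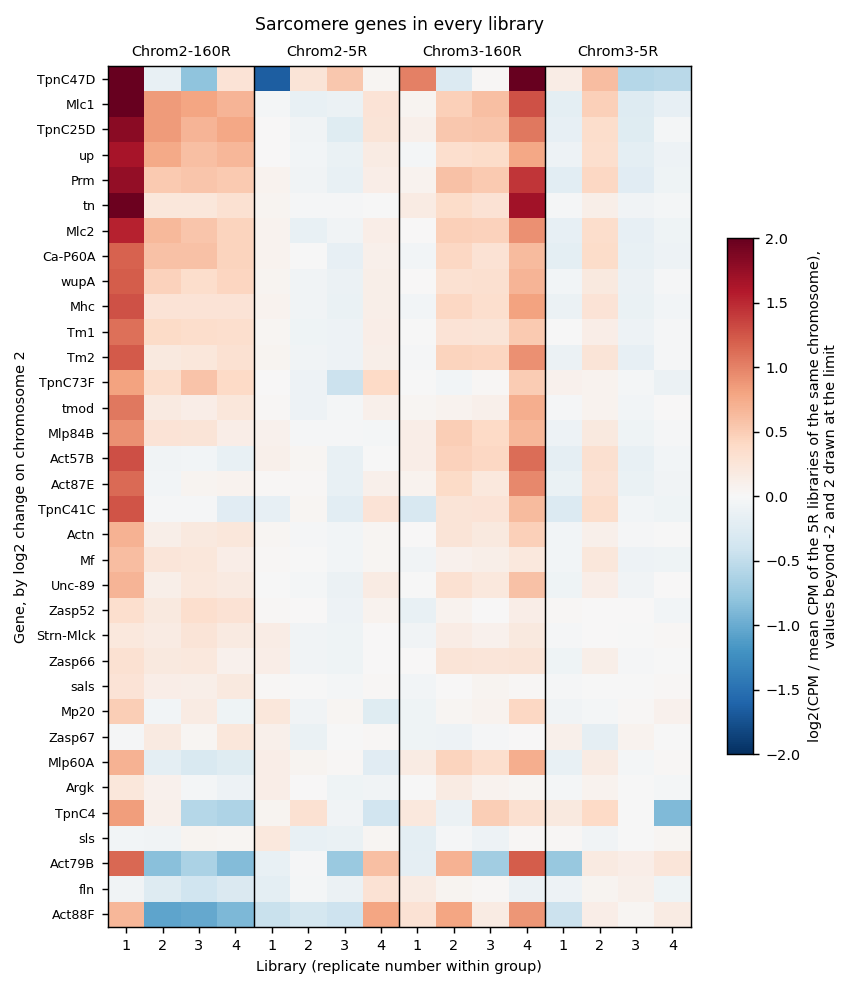
Log2 ratio of each library's CPM to the mean of the 5R libraries of the same chromosome, with 1 row per gene and 1 column per library. Chrom2-160R replicate 1 and Chrom3-160R replicate 4 are the darkest columns, and each is the highest of its group for 30 of 34 genes.

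Some markers of other tissues moved with the same libraries. Acp1, which encodes an adult cuticle protein, had 136, 16.4, 23.2 and 15 CPM in Chrom2-160R replicates 1 to 4, against 0.430 to 2.18 CPM in Chrom2-5R. In Chrom3-160R it had 11.7, 14.3, 14.3 and 79.6 CPM, against 0.202, 21.0, 1.64 and 0.361 CPM in Chrom3-5R. Acp1 was thus highest of its group in Chrom2-160R replicate 1, Chrom3-160R replicate 4 and Chrom3-5R replicate 2, although Chrom2-160R replicate 3 was above the last of these. The cuticle marker Edg78E, at a low level, did not move this way. It had 0.456 CPM in Chrom2-160R replicate 1, within a group range of 0.268 to 0.523 CPM. In Chrom3-160R replicate 4 it had 0.403 CPM, within 0.402 to 0.631 CPM. Over the whole list of 39 epidermis and cuticle genes, the summed level was 1448 CPM in Chrom2-160R replicate 1 and 934 to 969 CPM in the other 3, against 523 to 544 CPM in Chrom2-5R. On chromosome 3 the sum was 798 to 1225 CPM in Chrom3-160R, highest in replicate 4, against 599 to 723 CPM in Chrom3-5R. Of the 33 list genes tested, edgeR called 7 higher and 1 lower in Chrom2-160R, and 1 higher and 2 lower of 34 without its replicate 1. Of all genes, 12.8% were called higher and 13.3% lower, and 10.9% and 11.9% without that replicate. The fat body gene Fbp1 had 13.9 CPM in Chrom2-160R replicate 1 and 14.3 CPM in Chrom3-160R replicate 4, and at most 1.11 CPM in the other 14 libraries. The list of 12 fat body markers as a whole summed to 9303 CPM in Chrom2-160R replicate 1 and 7807 to 8454 CPM in the other 3, and to 10185 CPM in Chrom3-160R replicate 4, against 11009 CPM in its replicate 1, and Mtp was lowest of its group in Chrom2-160R replicate 1 at 76.5 CPM. The ejaculatory bulb gene Peb had 99.9 CPM in Chrom2-160R replicate 1 and at most 4.83 CPM in any other library, Chrom3-160R replicate 4 included at 0.262 CPM. The whole list of 25 male reproductive tract markers summed to 1199 CPM in Chrom2-160R replicate 1 and 838 to 900 CPM in the other 3. In Chrom2-5R that list summed to 965 to 1309 CPM. The part of these tissues in the sarcomere values was not tested.

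The summed level of the 34 sarcomere genes was 20047, 12584, 12576 and 12194 CPM in Chrom2-160R replicates 1 to 4, against 11417, 10305, 9892 and 11147 CPM in Chrom2-5R. All 4 Chrom2-160R libraries lay above all 4 Chrom2-5R libraries. In Chrom3-160R the sum was 8821, 10930, 10434 and 13272 CPM, against 8623, 10208, 8613 and 8890 CPM in Chrom3-5R, and these groups overlapped. As a share of all counts, the genes made up 1.22% to 1.92% of a Chrom2-160R library, against 0.957% to 1.09% of a Chrom2-5R library, and 0.927% to 1.36% of a Chrom3-160R library, against 0.880% to 1.04% of a Chrom3-5R library.

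**Figure D3:**
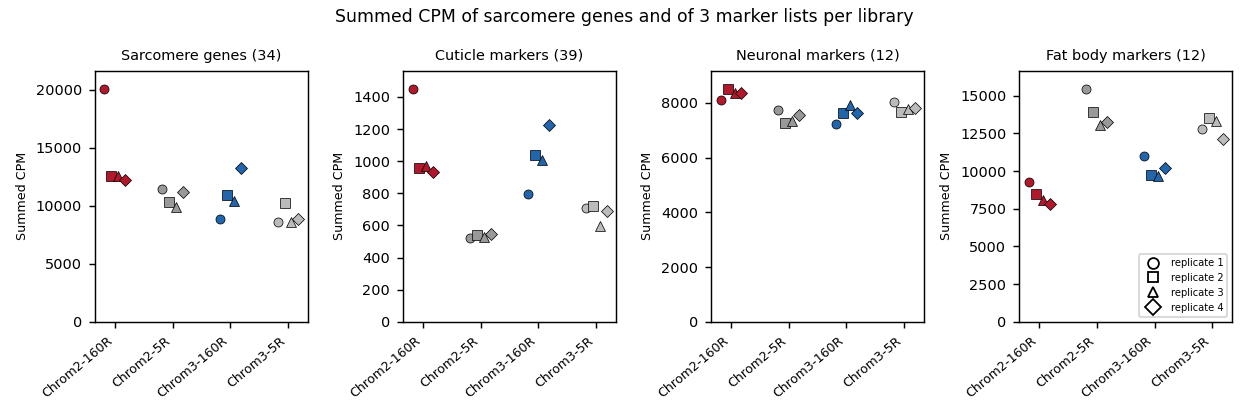
Summed CPM per library of the 34 sarcomere genes and of the cuticle, neuronal and fat body marker lists, with 1 symbol per replicate number. Chrom2-160R replicate 1 is highest for the sarcomere genes (20047 CPM) and for the cuticle markers (1448 CPM), while the fat body markers are lower in Chrom2-160R (7807 to 9303 CPM) than in Chrom2-5R (13066 to 15431 CPM).

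The first comparison asks how the long repeat expressed from chromosome 2 differs from the short one. In Chrom2-160R heads, 14 of the 34 sarcomere genes rose and none fell against Chrom2-5R, by edgeR's quasi-likelihood test at an adjusted p under 0.05 over 13525 genes. That is 41.2% of the members called higher, where 12.8% of all genes tested were called higher and 13.3% lower; at an unadjusted p under 0.05, 21 members were past the threshold, where 37.7% of all genes were. The median log2 change was 0.37 over the members and 0.01 over all genes, and 30 of the members were above 0. Every Chrom2-160R library was above every Chrom2-5R library for 18 members (52.9%), where this held for 11.9% of all genes, and the opposite held for 0 members and 10.7% of all genes. The genes that rose were the troponin genes up, wupA, TpnC25D and TpnC73F, the tropomyosin gene Tm1, the light chain genes Mlc1 and Mlc2, the thick-filament genes Mf and Strn-Mlck, the Z-disc genes Zasp52, Zasp66 and Actn, sals and Ca-P60A.

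Leaving out Chrom2-160R replicate 1 left 8 members called higher (sals, Tm1, Zasp52, Strn-Mlck, Ca-P60A, up, wupA and TpnC25D) and 2 called lower (Act88F and fln), where 10.9% of all genes were called higher and 11.9% lower. The median member change was then 0.18. With Chrom3-160R replicate 4, which shares the estimate of spread, also left out, 16 members were called higher and 3 lower (Act88F, fln and Mlp60A), where 10.9% of all genes were called higher and 13.2% lower, at a median member change of 0.17. A fit to Chrom2-160R and Chrom2-5R alone called 8 members higher, where 8.82% of all genes were. Leaving out Chrom2-5R replicate 2 left 8 members called higher, where 9.57% of all genes were, and leaving out Chrom2-5R replicate 3 left 7, where 9.06% were. Up, TpnC25D, Ca-P60A, Zasp52, Strn-Mlck and sals were called higher under all 24 alternatives run.

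Among thick-filament genes, Mlc1 encodes the essential myosin light chain and lies on the minus strand of 3R at 27657078 to 27660177 in the files' coordinates. Mlc1 had 361, 159, 151 and 141 CPM in Chrom2-160R replicates 1 to 4, against 85.0, 79.3, 81.0 and 106 CPM in Chrom2-5R. All 160R values were above all 5R values, and replicate 1 was far above its group. The log2 change was 1.20 ± 0.34 (SE, n = 4 each; edgeR adjusted p = 0.0198), and 0.77 ± 0.26 without replicate 1, which was no longer past the threshold (adjusted p = 0.0561).

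The regulatory light chain gene Mlc2 had 1337, 719, 679 and 624 CPM in Chrom2-160R, against 481, 415, 440 and 507 CPM in Chrom2-5R, with a log2 change of 0.87 ± 0.25 at an edgeR adjusted p of 0.0209. That call was also lost without replicate 1 (0.55 ± 0.18, adjusted p = 0.0528), although no libraries of the groups overlapped. The heavy chain gene Mhc, on 2L at 16766566 to 16788766, had 4467, 2235, 2251 and 2252 CPM in Chrom2-160R, against 1941, 1774, 1691 and 2012 CPM in Chrom2-5R. The groups did not overlap for Mhc either, but the log2 change of 0.60 ± 0.23 was not past the threshold (edgeR adjusted p = 0.0753). Paramyosin, the core protein of invertebrate thick filaments, is encoded by Prm, which had 445, 188, 194 and 190 CPM in Chrom2-160R, against 138, 125, 118 and 145 CPM in Chrom2-5R (0.95 ± 0.33, edgeR adjusted p = 0.0527).

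Other thick-filament genes showed smaller and tighter differences. Strn-Mlck, a titin and kinase family gene, had 480, 467, 493 and 472 CPM in Chrom2-160R, against 458, 393, 390 and 418 CPM in Chrom2-5R, with a log2 change of 0.21 ± 0.06 at an edgeR adjusted p of 0.0124. Here replicate 1 did not stand out, and the change was 0.20 ± 0.06 without it. Mf, which encodes myofilin, rose by 0.32 ± 0.10 (edgeR adjusted p = 0.0229) with all libraries, and by 0.20 ± 0.07 without replicate 1, where the adjusted p was 0.0537. The whole span of Mf overlaps Gyc88E, whose counts, 1.14 times those of Mf, include the reads in that span. The share of Gyc88E reads in Mf was not tested. The obscurin gene Unc-89 of the M-line had a log2 change of 0.32 ± 0.13 (edgeR adjusted p = 0.0973).

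Among thin-filament genes, up encodes troponin T, the subunit that ties the troponin complex to tropomyosin, and lies on the minus strand of X at 13593474 to 13602578. It had 527, 284, 255 and 267 CPM in Chrom2-160R, against 168, 162, 153 and 189 CPM in Chrom2-5R. The lowest 160R library was above the highest 5R library. The log2 change was 0.99 ± 0.24 (edgeR adjusted p = 0.00886), and 0.68 ± 0.17 without replicate 1 (adjusted p = 0.0143).

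The calcium-binding subunit is encoded by several troponin C genes. TpnC25D, on 2L at 5216701 to 5219053, had 258, 134, 118 and 126 CPM in Chrom2-160R, against 74.6, 70.4, 62.8 and 88.4 CPM in Chrom2-5R, with a log2 change of 1.10 ± 0.27 (edgeR adjusted p = 0.0100) and of 0.77 ± 0.21 without replicate 1 (adjusted p = 0.0213). The groups did not overlap. Its span of 2353 bp overlaps that of tkv over only 54 bp. Over its own whole span tkv had 2.96 times the counts of TpnC25D, and the share of tkv reads in TpnC25D was not tested. TpnC73F was lower in level, at 7.2, 5.26, 6.11 and 5.45 CPM in Chrom2-160R, against 4.15, 3.86, 3.06 and 5.44 CPM in Chrom2-5R (0.53 ± 0.16, edgeR adjusted p = 0.0248). TpnC41C had a log2 change of 0.36 ± 0.32 (edgeR adjusted p = 0.453), and of -0.10 without replicate 1. TpnC47D was near the limit of counting at 0.0942 to 2.94 CPM, with its highest value in Chrom2-160R replicate 1.

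Troponin I, the inhibitory subunit, is encoded by wupA, which had 363, 215, 199 and 211 CPM in Chrom2-160R, against 162, 149, 144 and 170 CPM in Chrom2-5R (log2 change 0.66 ± 0.18, edgeR adjusted p = 0.0190). The tropomyosin gene Tm1 had 621, 380, 371 and 368 CPM in Chrom2-160R, against 299, 274, 270 and 319 CPM in Chrom2-5R (0.58 ± 0.16, edgeR adjusted p = 0.0161). Both pairs of groups were separate, and both genes stayed called without replicate 1, at 0.41 ± 0.13 for wupA and 0.36 ± 0.10 for Tm1. The neighbouring tropomyosin gene Tm2 was separate between groups too, but its log2 change of 0.56 ± 0.24 was not past the threshold (edgeR adjusted p = 0.105).

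For the actins Act57B and Act87E, the group difference lay in 1 library. Act57B had 1263, 491, 497 and 466 CPM in Chrom2-160R, against 552, 533, 464 and 516 CPM in Chrom2-5R. Without replicate 1 the remaining Chrom2-160R values lay within the range of Chrom2-5R, and the log2 change of 0.40 ± 0.31 (edgeR adjusted p = 0.395) became -0.09 ± 0.20. Act87E had 124, 54.1, 58.6 and 59.3 CPM in Chrom2-160R, against 57.0, 57.0, 51.1 and 60.3 CPM in Chrom2-5R, and its log2 change of 0.39 ± 0.26 (edgeR adjusted p = 0.313) became 0.02 ± 0.19. Whether the actins differ from the troponin genes in their change was not tested.

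**Figure D4:**
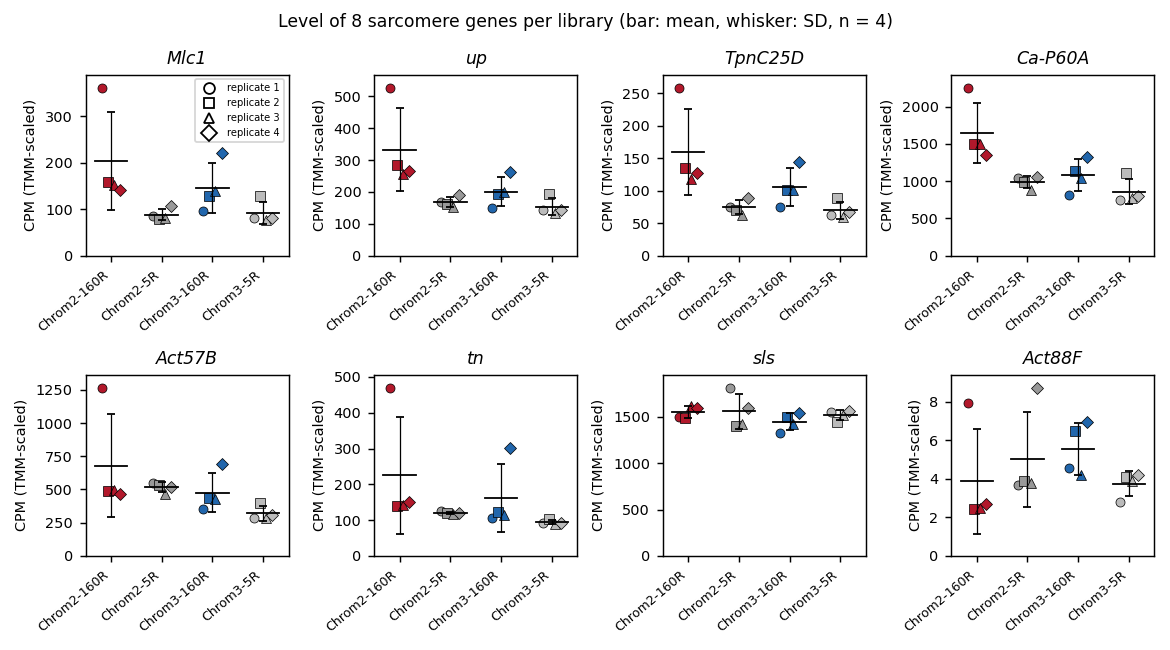
CPM per library of 8 sarcomere genes, with the mean and SD of the 4 libraries of each group. Mlc1, up, TpnC25D and Ca-P60A have all Chrom2-160R points above all Chrom2-5R points, whereas for Act57B only Chrom2-160R replicate 1 (1263 CPM) is above the Chrom2-5R range.

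No flight-muscle form was called on chromosome 2 in the main edgeR fit of all libraries. Act88F, on the plus strand of 3R at 15439969 to 15442177, had 7.96, 2.42, 2.46 and 2.68 CPM in Chrom2-160R, against 3.68, 3.91, 3.76 and 8.70 CPM in Chrom2-5R. With replicate 1 the groups overlapped and the log2 change was -0.44 ± 0.41 (edgeR adjusted p = 0.483). Without it, all 3 Chrom2-160R values were below all 4 Chrom2-5R values and Act88F fell by 1.03 on the log2 scale (SE 0.33, edgeR adjusted p = 0.0377), but with Chrom2-5R replicate 4 alone left out the change was 2.63e-05, in effect 0.

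Flightin, the fln product, binds myosin in thick filaments. The gene had 12.4, 10.9, 9.88 and 10.6 CPM in Chrom2-160R, against 11.4, 12.7, 12 and 15.9 CPM in Chrom2-5R, with -0.26 ± 0.10 as its log2 difference (edgeR adjusted p = 0.0603) that became -0.33 ± 0.10 without replicate 1 (adjusted p = 0.0260). Over the main fit and the alternatives its log2 difference ran from -0.341 to -0.145, and fln was called lower in 10 of these 25 fits. The span of fln overlaps CR45161, which had 0.976 times its counts. TpnC4 ran from 0.294 to 0.811 CPM in Chrom2-160R and from 0.348 to 0.558 CPM in Chrom2-5R, with no detectable difference at this depth (0.00 ± 0.44, edgeR adjusted p = 0.999). Summed over the 3 forms, the level was 12.7 to 21.1 CPM in Chrom2-160R, against 15.5 to 24.9 CPM in Chrom2-5R.

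Act79B, an actin of tubular adult muscles, had a profile over libraries close to that of Act88F at a higher level. Its 4 highest values of 16 were 128 CPM in Chrom2-160R replicate 1, 91.5 CPM in Chrom3-160R replicate 4, 87.6 CPM in Chrom2-5R replicate 4 and 63.8 CPM in Chrom3-160R replicate 2. The 4 highest values of Act88F fell in the same 4 libraries, at 7.96, 6.93, 8.70 and 6.47 CPM. The ratio of Act88F to Act79B ran from 0.0622 to 0.173 over the 16 libraries, and how far reads of one were counted in the other was not tested. Act79B did not differ between Chrom2-160R and Chrom2-5R beyond the spread (log2 change -0.02 ± 0.54, edgeR adjusted p = 0.987).

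At the Z-disc, Zasp52 encodes a PDZ and LIM protein that binds alpha-actinin. It had 161, 146, 161 and 156 CPM in Chrom2-160R, against 129, 129, 118 and 134 CPM in Chrom2-5R, a log2 change of 0.29 ± 0.06 (edgeR adjusted p = 0.00104) that was 0.28 ± 0.06 without replicate 1. This was the smallest adjusted p among the members, and no library stood out. The Zasp52 span of 54440 bp overlaps tun on the opposite strand over 23005 bp. Counts of tun were 0.982 times those of Zasp52, and the share of tun reads in the Zasp52 values was not tested. Zasp66 rose by 0.20 ± 0.06 (edgeR adjusted p = 0.0276) and lost its call without replicate 1 (0.17 ± 0.07, adjusted p = 0.0784). Actn, the alpha-actinin gene that crosslinks thin filaments, had 428, 287, 301 and 310 CPM in Chrom2-160R, against 271, 259, 253 and 271 CPM in Chrom2-5R (0.33 ± 0.11, edgeR adjusted p = 0.0443), and was called under 10 of the 24 alternatives. Zasp67 was not past the threshold (0.12 ± 0.07, edgeR adjusted p = 0.273).

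The titin-like gene sls links the Z-disc to the thick filament and is one of the most abundant members in CPM. It had 1500, 1486, 1621 and 1598 CPM in Chrom2-160R, against 1809, 1406, 1421 and 1600 CPM in Chrom2-5R, so the groups overlapped fully (-0.01 ± 0.07, edgeR adjusted p = 0.962). The muscle LIM protein genes differed from each other: Mlp84B had a log2 change of 0.42 ± 0.15 (edgeR adjusted p = 0.0584) with separate groups, and Mlp60A had 88.5, 47.4, 44.1 and 46.0 CPM in Chrom2-160R, against 59.5, 56.7, 55.2 and 46.3 CPM in Chrom2-5R (0.05 ± 0.20, edgeR adjusted p = 0.890).

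Among the remaining members, Ca-P60A, on the minus strand of 2R at 23925077 to 23935884, had 2252, 1493, 1495 and 1350 CPM in Chrom2-160R, against 1036, 991, 881 and 1060 CPM in Chrom2-5R. The groups were separate, and the log2 change of 0.73 ± 0.18 (edgeR adjusted p = 0.00967) was 0.54 ± 0.16 without replicate 1 (adjusted p = 0.0279). The thin-filament lengthening gene sals had 69.3, 62.8, 61.9 and 65.5 CPM in Chrom2-160R, against 58.0, 57.1, 55.7 and 58.5 CPM in Chrom2-5R, a log2 difference of 0.18 ± 0.04 (edgeR adjusted p = 0.00425). Its partner CG17230 had 1.60 times its counts, with the reads in their overlap included.

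The gene tn, whose product is a TRIM family protein that keeps sarcomeres intact, had 469, 141, 141 and 149 CPM in Chrom2-160R, against 125, 119, 118 and 120 CPM in Chrom2-5R. The groups were separate, yet the log2 change of 0.90 ± 0.43 was not past the threshold (edgeR adjusted p = 0.145). The filament-capping gene tmod (0.45 ± 0.20, edgeR adjusted p = 0.121), the calponin-like gene Mp20 (0.15 ± 0.14, adjusted p = 0.460) and Argk (0.05 ± 0.07, adjusted p = 0.667) were not past the threshold either.

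The second comparison asks the same question for the chromosome 3 insertions. None of the 34 members was called in Chrom3-160R against Chrom3-5R by edgeR, where 2.11% of all genes were called, and DESeq2 called 0 as well. At an unadjusted p under 0.05 there were 7 members (Zasp66, Mlp84B, TpnC25D, Prm, Unc-89, Actn and Mlp60A), where 14.7% of all genes were past it. The median log2 change was 0.32 over the members and 0.00 over all genes, and 32 members were above 0. Every Chrom3-160R library was above every Chrom3-5R library for Mlp60A and tn only, 2 of 34 (5.88%), where 5.7% of all genes showed this, and the opposite held for 0 members and 5.77% of all genes.

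Of the 18 genes whose groups were separate on chromosome 2, tn alone was separate on chromosome 3 too. Mlc1 had 95.2, 128, 139 and 221 CPM in Chrom3-160R, against 80.1, 127, 76.9 and 81.7 CPM in Chrom3-5R (log2 change 0.67 ± 0.33, edgeR adjusted p = 0.370). The troponin T gene up had 149, 193, 199 and 263 CPM in Chrom3-160R, against 143, 193, 135 and 143 CPM in Chrom3-5R (0.39 ± 0.23, edgeR adjusted p = 0.476). In both genes Chrom3-160R replicate 4 was the highest of 8 and Chrom3-5R replicate 2 lay among the Chrom3-160R values. TpnC25D had 74.4, 101, 101 and 145 CPM in Chrom3-160R, against 62.2, 89, 58.7 and 67.7 CPM in Chrom3-5R (0.60 ± 0.26, edgeR adjusted p = 0.312). Ca-P60A had 820, 1137, 1046 and 1328 CPM in Chrom3-160R, against 751, 1104, 776 and 794 CPM in Chrom3-5R (0.34 ± 0.18, edgeR adjusted p = 0.412).

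The pair of genes with separate groups behaved differently from each other. The ubiquitin-ligase family gene tn had 105, 122, 114 and 303 CPM in Chrom3-160R, against 92.2, 102, 89.9 and 91.8 CPM in Chrom3-5R, with most of the mean difference in replicate 4 (0.78 ± 0.42, edgeR adjusted p = 0.428). Mlp60A had 41.3, 49.9, 46.3 and 60.9 CPM in Chrom3-160R, against 33.0, 41.1, 35.6 and 37.2 CPM in Chrom3-5R, a log2 change of 0.43 ± 0.20 (edgeR adjusted p = 0.335). With Chrom3-160R replicate 4 left out, no member was called and the median change was 0.19; with Chrom2-160R replicate 1 also left out, Mlp84B (0.35, adjusted p = 0.0323) and tn (0.27, adjusted p = 0.00453) were called higher, where 0.846% of all genes were. With Chrom2-160R replicate 1 alone left out, Mlp60A and Mlp84B were called higher, where 1.33% of all genes were, and with Chrom3-160R replicate 1 alone left out Zasp66 was (0.25 ± 0.06, edgeR adjusted p = 0.0279), where 0.761% of all genes were.

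The flight-muscle forms were at 4.57, 6.47, 4.20 and 6.93 CPM for Act88F in Chrom3-160R, against 2.79, 4.11, 3.86 and 4.20 CPM in Chrom3-5R (log2 change 0.57 ± 0.37, edgeR adjusted p = 0.513). For fln the values were 12.5 to 15.2 CPM in Chrom3-160R and 12.7 to 14.6 CPM in Chrom3-5R (0.03 ± 0.09, edgeR adjusted p = 0.913). TpnC4 had 0.487 to 0.744 CPM in Chrom3-160R and 0.288 to 0.703 CPM in Chrom3-5R (0.25 ± 0.28, edgeR adjusted p = 0.734). None of the 3 was past the threshold. Among the actins, Act57B had 350, 439, 427 and 691 CPM in Chrom3-160R, against 283, 400, 288 and 306 CPM in Chrom3-5R (0.58 ± 0.31, edgeR adjusted p = 0.425).

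**Figure D5:**
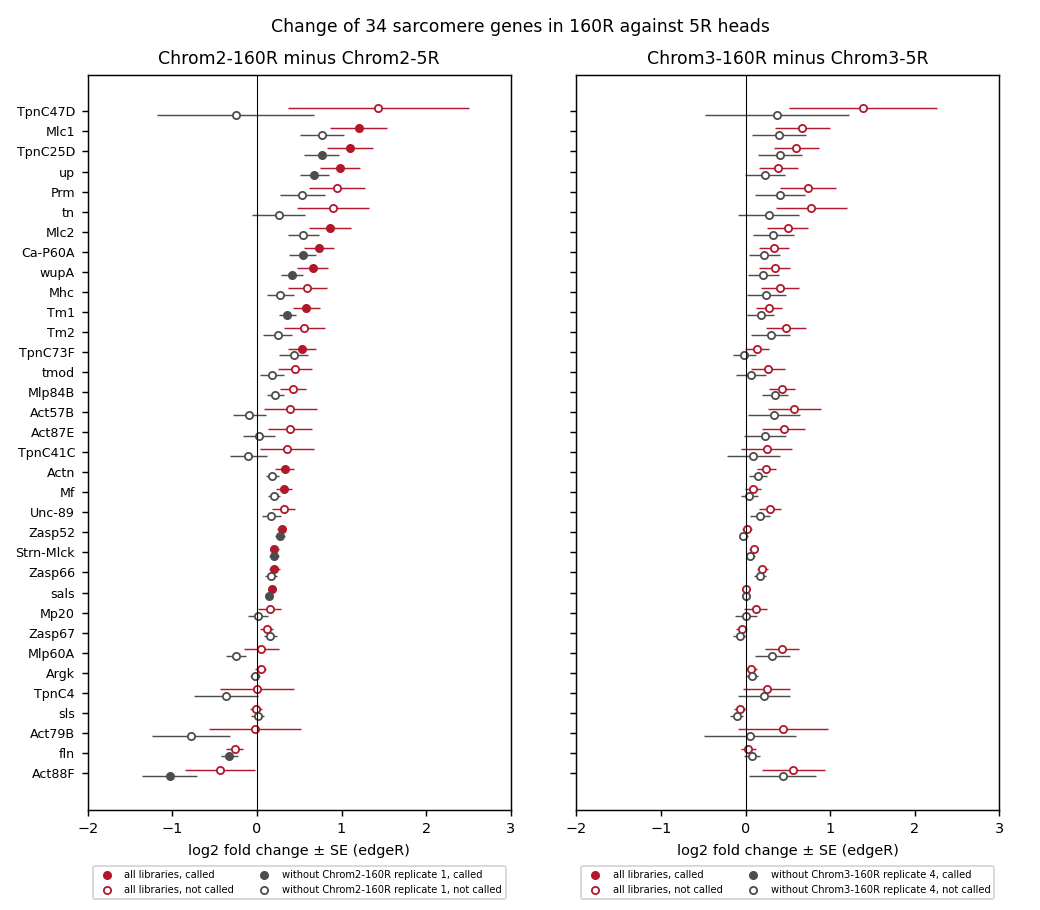
Log2 change ± SE of each sarcomere gene in 160R against 5R heads, for chromosome 2 at the left and chromosome 3 at the right, with all libraries and without the 160R library that stood apart. Filled points are called: 14 on chromosome 2 with all libraries and 10 without Chrom2-160R replicate 1 (8 higher, 2 lower), and 0 on chromosome 3 in either fit.

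The difference between the insertions was tested directly, as the chromosome 3 change minus the chromosome 2 change. Zasp52 was the only member called (-0.28 ± 0.08, edgeR adjusted p = 0.0404), where 7.27% of all genes were called and 3.36% called lower. Its values were 129, 152, 144 and 158 CPM in Chrom3-160R, against 147, 145, 145 and 139 CPM in Chrom3-5R, with overlapping groups, whereas its groups were separate on chromosome 2. That call was kept in 3 of the 16 fits that left out 1 library. Reads of tun, whose span overlaps that of Zasp52, may enter these values, and their share was not tested. For the other members the difference was not past the threshold, and its standard error was large for many: it was -0.60 ± 0.33 for up (edgeR adjusted p = 0.314), -0.53 ± 0.47 for Mlc1 (adjusted p = 0.549) and 0.18 ± 0.44 for Act57B (adjusted p = 0.860). Sarcomere genes being called on chromosome 2 and not on chromosome 3 is therefore not shown to be a difference between the insertions. The single call, that of Zasp52, made up 2.94% of the members, under the share of all genes called.

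Without Chrom2-160R replicate 1, Zasp52 was no longer called for this difference, and Mlp60A and Act88F were called higher instead, where 5.49% of all genes were. Without both libraries that stood apart, fln, Mlp60A and Act88F were called higher, where 5.67% of all genes were, and Zasp52 lower, where 4.15% were.

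The 5R flies of the chromosome 3 and chromosome 2 insertions were compared to show how far the lines differ without the long repeat. Line and sequencing depth go together here and cannot be told apart, and Chrom2-5R also serves the first comparison. In Chrom3-5R, 2 members were called higher and 4 lower, where 15.4% of all genes were called higher and 14.9% lower. Photoreceptor markers moved with the line: 12 of 14 were called lower and 0 higher in Chrom3-5R, with a summed level of 19505 to 20776 CPM in Chrom3-5R, against 28026 to 38072 CPM in Chrom2-5R. Their part in the sarcomere values was not tested. Argk had 1155, 1235, 1179 and 1153 CPM in Chrom3-5R, against 1763, 1612, 1519 and 1534 CPM in Chrom2-5R, with no overlap (difference in log2 -0.45 ± 0.07, edgeR adjusted p = 8.97e-05). Zasp67 had 17.8, 14.8, 17.5 and 16.7 CPM in Chrom3-5R, against 12.8, 10.9, 11.9 and 12.1 CPM in Chrom2-5R (0.49 ± 0.07, edgeR adjusted p = 8.87e-05). Mp20 fell by 0.59 (SE 0.14, edgeR adjusted p = 0.00456), Zasp66 by 0.28 (SE 0.06, adjusted p = 0.00297) and Strn-Mlck by 0.17 (SE 0.06, adjusted p = 0.0312) on the log2 scale, and Zasp52 rose by 0.18 (SE 0.06, adjusted p = 0.0213).

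Every Chrom3-5R library was below every Chrom2-5R library for 10 members (29.4%), where 14.9% of all genes showed this, and above for 2 (5.88%), where 15.7% did. Act57B was among the 10, with a log2 change of -0.69 ± 0.31 that was not past the threshold (edgeR adjusted p = 0.117). Without Chrom2-160R replicate 1, 7 members were called lower, where 15.5% of all genes were, Act57B, Mlp60A and Mlp84B being added. Without both libraries that stood apart 13 were, where 16.5% of all genes were.

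Other muscle genes were taken from 4 lists that hold 84 genes found in the files, 83 of them tested. In Chrom2-160R against Chrom2-5R, 22 were called higher and 4 lower, where 12.8% of all genes were called higher and 13.3% lower, and the median log2 change was 0.09. Without Chrom2-160R replicate 1, 20 were called higher and 3 lower of 84, where 10.9% and 11.9% of all genes were. In Chrom3-160R against Chrom3-5R none was called by edgeR, where 2.11% of all genes were. For excitation-contraction coupling, 4 of 14 were called higher on chromosome 2, Calx among them, and 1 lower (Stim). For filament assembly, 5 of 19 were called higher (Act42A and cher among them) and 1 lower (Zyx, whose span overlaps Rfabg with 38.5 times its counts). For muscle attachment, 6 of 22 were higher (Scgalpha, Fit2 and trol among them) and 2 lower (Dys and by). For muscle regulators, 7 of 28 were higher (twi, rols, how and blow among them, the last overlapping Vps13 with 5.52 times its counts) and 0 lower. The 4 genes called lower were named after their values were seen.

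The largest change among these was that of cher, which encodes filamin, an actin crosslinker also made outside muscle. It had 347, 322, 355 and 295 CPM in Chrom2-160R, against 226, 215, 213 and 207 CPM in Chrom2-5R (log2 change 0.61 ± 0.08, edgeR adjusted p = 3.1e-05). The cytoplasmic actin gene Act42A rose by 0.50 ± 0.11 (edgeR adjusted p = 0.00256), and trol, which encodes the basement membrane protein perlecan, by 0.45 ± 0.12 (adjusted p = 0.0115). None of these 3 genes is restricted to muscle. The myogenic transcription factor gene Mef2 was not past the threshold (0.10 ± 0.05, edgeR adjusted p = 0.109), nor was bt, the projectin gene of the titin family (0.25 ± 0.09, adjusted p = 0.0566), nor the cytoplasmic actin gene Act5C (0.05 ± 0.07, adjusted p = 0.621). The files hold Msp300, the spectrin-repeat gene whose symbol differs from the member's by a hyphen, and it was named after its values were seen: it had 2638, 3149, 3389 and 3497 CPM in Chrom2-160R, against 4497, 3481, 3739 and 3847 CPM in Chrom2-5R, and fell by 0.30 on the log2 scale (SE 0.09, edgeR adjusted p = 0.0172).

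Marker lists of other cells were read beside these changes, although their RNA levels do not measure cell numbers. In Chrom2-160R against Chrom2-5R, 7 of 12 neuronal markers were called higher and 0 lower, and 6 of 11 fat body markers tested were called lower and 0 higher, where 12.8% of all genes were called higher and 13.3% lower. The summed level of 12 fat body markers was 7807 to 9303 CPM in Chrom2-160R, against 13066 to 15431 CPM in Chrom2-5R, and 9695 to 11009 CPM in Chrom3-160R, against 12161 to 13520 CPM in Chrom3-5R. Neuronal markers summed to 8110 to 8502 CPM in Chrom2-160R, against 7258 to 7731 CPM in Chrom2-5R, and to 7246 to 7918 CPM in Chrom3-160R, against 7666 to 8042 CPM in Chrom3-5R. Of the 14 photoreceptor markers 2 were called higher and 4 lower in Chrom2-160R, of the 9 hemocyte markers 2 higher and 1 lower, of the 9 glial markers 3 higher and 0 lower, of the 7 midgut markers tested 0 higher and 2 lower, and of the 12 male reproductive tract markers tested 4 higher and 2 lower. The part of these shifts in the sarcomere values was not tested.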

How the data were processed

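RNA was extracted with Trizol from frozen heads and made into strand-specific libraries without poly(A) selection, per the labels. The deposited values are whole-number counts of reads per gene, not normalized. Trimmomatic, STAR, bedtools and DESeq, with the builds BDGP6 and mm10, are named per the submitters' processing notes; their roles, versions and settings, not given in the sources used here, stay unnamed. The 34 member spans are fly coordinates, counted from 1, and 32 were identical in the BDGP6 annotation.

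Groups came from the labels. The members and gene lists, and the rule that any member may be named but of other muscle genes only the 10 with the largest called changes, plus Mef2, bt and Act5C, were chosen with earlier results of these data known. Genes were kept with edgeR's filterByExpr (13525 of 17558), scaled by TMM, and tested with edgeR 4.0.16 quasi-likelihood in R 4.3.3 on all 16 libraries as 4 groups (shared biological coefficient of variation 0.106), with Benjamini-Hochberg adjustment over all genes tested. CPM are TMM-scaled; a fold change is on the log2 scale. No library was a repeat of another: within groups, count differences gave a chi-square of 6.91 to 43.7 for each degree of freedom. The fit was tested on simulated counts. Alternatives were other scalings and filters, DESeq2 1.42.0, the compared groups alone, a replicate block and left-out libraries.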

Additional observations from a re-analysis of the deposited data

Results flagged for a closer look

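In each group of 4 libraries, the highest or lowest value of every sarcomere gene was set against Dixon's 95% critical value for 4 samples. Of 136 sets, 35 were past it, where chance gives about 1 in 20 (6.8). Of these, 22 were high values in Chrom2-160R replicate 1. In CPM they were Mhc 4467, Ca-P60A 2252, Mlc2 1337, Act57B 1263, Tm1 621, tmod 565, up 527, tn 469, Prm 445, Actn 428, Mlp84B 396, Tm2 377, Unc-89 364, wupA 363, Mlc1 361, TpnC25D 258, Act79B 128, Act87E 124, Mlp60A 88.5, TpnC41C 51.0, Act88F 7.96 and TpnC47D 2.94.

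In Chrom3-160R replicate 4, tmod (465 CPM), tn (303 CPM) and TpnC73F (7.42 CPM) were high, so tmod and tn stood out in both libraries. In Chrom3-5R replicate 2, 6 genes were high: Ca-P60A with 1104 CPM, Mlc2 with 502 CPM, Mf with 463 CPM, up with 193 CPM, Mlc1 with 127 CPM and Act87E with 52.0 CPM. The remaining 4 were Act88F at 8.70 CPM in Chrom2-5R replicate 4 (high), Mlp84B at 223 CPM in Chrom2-5R replicate 1 (high), Zasp66 at 154 CPM in Chrom3-160R replicate 1 (low) and Act79B at 23.4 CPM in Chrom3-5R replicate 1 (low).

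For Zasp52 the change on chromosome 3 minus that on chromosome 2 was -0.276 on the log2 scale, which edgeR called (adjusted p = 0.0404). The call was kept under 9 of 23 alternatives, and 7.27% of all genes were called for this difference.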

How the results depend on the processing

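On chromosome 2, edgeR called 14 members higher; the count was 16 with DESeq2, 16 with library totals alone, 14 with median-of-ratios size factors, 13 with no filter, 15 with a stricter filter and 8 with the compared groups alone, and 7 to 16 with libraries left out. Members called lower were 0, and 1 with DESeq2 or the stricter filter and 0 to 3 with libraries left out. All genes called, in either direction, were 3535, and 3529 with DESeq2, 3419 with library totals alone and 3537 with median-of-ratios size factors. They were 3186 with no filter, 3590 with a stricter filter, 2293 with the compared groups alone and 2657 to 3779 with libraries left out. On chromosome 3 the 0 calls became 0 to 2 higher with libraries left out. All genes called there were 285, and 521 with DESeq2 and 167 to 452 with libraries left out. For the difference between insertions, members called higher ran from 0 to 3 and lower from 0 to 1 with libraries left out. All genes called for it were 983, and 584 to 1695 with libraries left out. The compared groups alone could not be fitted, since the difference needs all 4. In Chrom3-5R against Chrom2-5R, members called lower were 4, and 12 with the compared groups alone and 3 to 13 with libraries left out, and those called higher 2, and 1 to 3. In the main fit 14.9% of all genes were called lower. All genes called, in either direction, were 4103, and 3994 with the compared groups alone and 3291 to 4510 with libraries left out. The cause of these shifts was not tested.

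Same-numbered libraries did not deviate together (correlations from -0.247 to 0.244, median 0.00296, 24 pairs), so no pairing by number was detected. These correlations cannot exclude that some same-numbered libraries shared a batch. With a replicate block, 11 members were called higher on chromosome 2, 0 on chromosome 3, 0 for the difference between insertions (Zasp52 lost), and 2 higher and 3 lower between the 5R groups; all genes called on chromosome 2 were 3052, on chromosome 3 197, for the difference 647. Under the block the log2 change on chromosome 2 was 0.0126 for Act79B and -0.0227 for TpnC4.

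Direction changed for members that were not called. With libraries left out, the log2 changes on chromosome 2 ran from -0.102 to 0.538 for Act57B, from -0.793 to 0.261 for Act79B, from -1.04 to 2.63e-05 for Act88F, from -0.113 to 0.52 for TpnC41C, from -0.265 to 1.84 for TpnC47D, from -0.379 to 0.193 for TpnC4, from -0.0537 to 0.0719 for sls, from -0.257 to 0.156 for Mlp60A (called lower at -0.257, edgeR adjusted p = 0.0424) and from -0.0316 to 0.0926 for Argk. On chromosome 3 they ran from -0.0137 to 0.189 for TpnC73F, from -0.0186 to 0.0779 for fln, from -0.0283 to 0.0629 for Zasp52 and from -0.0125 to 0.0216 for sals. TpnC4 was at -0.00319 with median-of-ratios size factors and sls at 0.0285 with library totals alone. Of 812 alternative values of single members on chromosome 2, 709 kept direction and side of the threshold, 42 lost a call, 24 gained one and 37 changed direction; on chromosome 3, 798 of 814 kept both, 5 gained a call and 11 changed direction. TpnC4 and TpnC47D, with 304 and 274 reads over 16 libraries, are limited by depth.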

Other observations

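Ratios within a library were looked at after the values were seen, and are given with no test. The CPM ratio of Mlc1 to Act57B was 0.286, 0.323, 0.304 and 0.303 in Chrom2-160R replicates 1 to 4, against 0.154, 0.149, 0.175 and 0.205 in Chrom2-5R. On chromosome 3 the same ratio spanned 0.272 to 0.326 in Chrom3-160R, against 0.267 to 0.319 in Chrom3-5R. Chrom2-5R was thus the group with the low ratio. Chrom2-160R replicate 1 was lowest of its group for this ratio and stood further from it for others: the ratio of Ca-P60A to Act57B was 1.78 there and 2.90 to 3.04 in the other 3 libraries, against 1.86 to 2.05 in Chrom2-5R, that of Mlc2 to Act57B was 1.06 there and 1.34 to 1.46 in the other 3, against 0.778 to 0.983 in Chrom2-5R, that of Mhc to Act57B was 3.54 there and 4.53 to 4.83 in the other 3, against 3.33 to 3.90 in Chrom2-5R, and that of up to Act57B was 0.417 there and 0.514 to 0.578 in the other 3, against 0.304 to 0.367 in Chrom2-5R. For tn to Act57B that library was instead the highest of its group, at 0.371, with 0.284 to 0.321 in the other 3. In Chrom2-5R the ratio of tn to Act57B was 0.223 to 0.254. The ratio of TpnC25D to Act57B was 0.204 to 0.273 in Chrom2-160R, against 0.132 to 0.171 in Chrom2-5R, and 0.209 to 0.238 in Chrom3-160R, against 0.204 to 0.223 in Chrom3-5R. For the actin pair Act87E and Act57B the ratio was 0.0981 to 0.127 in Chrom2-160R, against 0.103 to 0.117 in Chrom2-5R, which overlapped. On chromosome 3 this ratio was lower in Chrom3-160R (0.1155 to 0.1282) than in Chrom3-5R (0.1301 to 0.1369), with no overlap. Chrom3-160R was also separate and lower for up to Act57B (0.3803 to 0.4652, against 0.4669 to 0.5054). The same held narrowly for Ca-P60A to Act57B (1.924 to 2.591, against 2.598 to 2.76). For Mlc2, Mhc, Tm2 and tn to Act57B the chromosome 3 groups overlapped.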
